A study of Mus musculus with 36 samples.

Results

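T cells recognise antigen through a receptor of an α and a β chain. The variable parts of both chains are joined from gene segments in the thymus, and the constant parts are encoded by Trac and by either Trbc1 or Trbc2. The receptor has very short cytoplasmic tails and signals through the CD3 chains. CD3δ (Cd3d) and CD3γ (Cd3g) each pair with CD3ε (Cd3e), and the ζ chain (Cd247) forms a dimer whose activation motifs are phosphorylated by Lck and recruit ZAP-70.

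Chromatin accessibility at the T cell receptor and CD3 genes was read from ATAC-seq libraries, made with a transposase that inserts into open DNA, over the 7 genes Cd3d, Cd3e, Cd3g, Cd247, Trac, Trbc1 and Trbc2. A consensus peak was taken as a member when its midpoint was nearest to a GENCODE transcription start of one of these genes on GRCm39, or when it overlapped one of their gene bodies. This gave 35 of 71509 peaks. Of these, 4 were members by the nearest start alone, 21 by the gene body alone and 10 by both. Cd247 held 23 peaks, Cd3e 5, and Cd3d and Cd3g 3 each, of which 1 covered the starts of both. Trac held 1 peak, and 1 peak covered Trbc1 and Trbc2 together, so that these genes could not be told apart. Peaks are named by the distance in kb of their centre from the start of the gene, in the direction of transcription and negative upstream.

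The 36 libraries came from CD4 T cells of 2 mutant mouse lines on a mixed 129/Sv and C57BL/6 background, in 12 groups of 3. HP1α and HP1γ are chromatin proteins that bind methylated histone H3. In the HP1α line, KO mice were Hp1a-/- after excision of a floxed allele with CMV-cre, and WT mice were +/+ littermates. In the HP1γ line, all mice were homozygous for floxed Hp1g, KO mice also carried Cd4-cre, which acts in cells that have switched on Cd4, and WT littermates carried no Cre. Mice were males of 6 to 12 weeks. Naive cells were profiled from the spleen. Tconv had been given as naive cells of the same genotype to irradiated B6 hosts, with B6 and semi-allogeneic B6D2F1 marrow, and were sorted after 3 weeks as donor cells bearing Vβ6, whereas TconvTreg had been given together with expanded WT Treg. By the study's methods the gate for transferred cells required CD4 and Vβ6 and left out cells with Thy1.1, carried by the injected Treg, or with H-2Kd of the B6D2F1 marrow, so that it was meant to remove the injected Treg and cells other than CD4 T cells. Naive cells were not sorted for a β chain. The labels do not say whether libraries of a group came from separate animals, so that p-values measure the spread between these libraries, which may be technical.

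Libraries held between 1.49 and 96.8 M reads in peaks (M, 1e6 reads), with a median of 54.8 M. The study left out 1 HP1α WT and 2 HP1α KO TconvTreg libraries for a low fraction of reads in peaks and low enrichment at transcription starts. They held 3.20 to 7.12 M reads, and a kept WT library of that condition held 1.49 M. The HP1α fit thus holds 2 WT libraries and 1 KO library in that condition. Fits with all HP1α libraries include those left out. All 8 CD4 T cell markers and all 4 Treg markers examined had a start peak, and so did 2 of 6 markers of B cells, 1 of 3 of NK cells, 3 of 5 of myeloid cells, 3 of 5 of erythroid cells, 2 of 3 of CD8 T cells and 1 of 4 of γδ T cells. Outside the CD4 T cell list, the highest value in any library was 181 CPM (reads scaled to 1e6 per library) at Ctla4 of the Treg list. The next lists reached 132 CPM at Runx3 (CD8), 71.1 CPM at Eomes (NK) and 24.2 CPM at Cd68 (myeloid). Defining markers without a start peak included Cd79a, Cd79b and Ms4a1 of B cells, Ncr1 of NK cells, Lyz2 and Csf1r of myeloid cells, Cd8a, and Trdc of γδ T cells. The main Cd4 start peak held 511 to 730 CPM in the 9 HP1γ KO libraries and 80.4 to 119 CPM in the 9 HP1γ WT libraries, and reads of the gene and of the Cd4-cre transgene cannot be told apart there. Start peaks of Cbx5 (HP1α) and Cbx3 (HP1γ) do not check the deletions.

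Sequence is shown for the places on which the results turn. The first set gives the 250 bases before the starts of the 4 CD3 genes (RefSeq, GRCm38.p6 table, each matched once to GRCm39 and lying within a member peak), because the peaks over these starts were called in no comparison. The table held 4 of the 7 members. Capitals mark matches on either strand to TGTGGT for the RUNX core, GGAAGT for ETS factors, CTTTGA for TCF/LEF, AGATAA for the GATA factors, CAGCTG and CAGGTG for E-box factors, TGACGTCA for the CRE, TGANTCA for AP-1, GGAAAA for NFAT, TATAAA for the TATA box, and the CCAAT box.
Cd3d, chr9:44892834-44893083, plus strand: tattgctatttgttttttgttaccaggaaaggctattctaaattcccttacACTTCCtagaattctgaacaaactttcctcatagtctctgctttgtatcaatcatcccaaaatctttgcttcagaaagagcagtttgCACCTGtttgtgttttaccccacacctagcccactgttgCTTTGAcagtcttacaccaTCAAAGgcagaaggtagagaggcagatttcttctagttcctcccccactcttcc
Cd3g, chr9:44891730-44891979, minus strand: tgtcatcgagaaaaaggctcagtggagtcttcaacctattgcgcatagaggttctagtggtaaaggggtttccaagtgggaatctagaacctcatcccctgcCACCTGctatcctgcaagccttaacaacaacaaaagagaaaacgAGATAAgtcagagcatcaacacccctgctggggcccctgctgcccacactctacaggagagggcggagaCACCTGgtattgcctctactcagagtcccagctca
Cd3e, chr9:44920910-44921159, minus strand: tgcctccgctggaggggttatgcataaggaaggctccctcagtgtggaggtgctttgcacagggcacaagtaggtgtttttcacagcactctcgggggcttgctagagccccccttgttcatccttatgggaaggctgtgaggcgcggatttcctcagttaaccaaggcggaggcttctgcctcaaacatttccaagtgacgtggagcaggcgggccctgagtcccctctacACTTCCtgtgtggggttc
Cd247, chr1:165616000-165616249, plus strand: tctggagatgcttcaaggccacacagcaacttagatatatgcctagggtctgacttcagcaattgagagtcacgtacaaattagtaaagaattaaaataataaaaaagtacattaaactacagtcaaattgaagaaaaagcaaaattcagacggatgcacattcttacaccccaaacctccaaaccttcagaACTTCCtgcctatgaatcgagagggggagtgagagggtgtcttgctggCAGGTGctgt

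ETS letters occurred once each before Cd3d, Cd3e and Cd247, and in 19.74% of the 32851 windows of this length in the table. CAGGTG occurred once before Cd3d and Cd247 and 2 times before Cd3g, beside 17.22% of all windows. TCF/LEF letters occurred 2 times before Cd3d (13.83% of all windows) and GATA letters once before Cd3g (9.99%). GC content was 41.2% for Cd3d and Cd247, 51.6% for Cd3g and 57.2% for Cd3e, beside a median of 52.4%. A match is a description of the letters and not a binding site.

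The second set gives the central 300 bases of 3 peaks away from the starts. Cd3e -9.5 kb was called higher in Tconv than in naive cells in all 4 comparisons of line and genotype, Cd247 33.5 kb was called higher in 3 of them, and Cd247 40.1 kb was called lower in all 4. All are given on the plus strand of GRCm39, with the same motifs in capitals.
Cd3e -9.5 kb, chr9:44930241-44930540: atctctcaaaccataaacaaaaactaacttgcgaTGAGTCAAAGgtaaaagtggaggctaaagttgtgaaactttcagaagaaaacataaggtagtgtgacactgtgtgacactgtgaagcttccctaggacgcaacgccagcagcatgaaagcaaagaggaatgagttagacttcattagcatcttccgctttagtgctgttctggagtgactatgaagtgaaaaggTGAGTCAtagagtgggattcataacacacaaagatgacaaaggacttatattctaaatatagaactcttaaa
Cd247 33.5 kb, chr1:165649641-165649940: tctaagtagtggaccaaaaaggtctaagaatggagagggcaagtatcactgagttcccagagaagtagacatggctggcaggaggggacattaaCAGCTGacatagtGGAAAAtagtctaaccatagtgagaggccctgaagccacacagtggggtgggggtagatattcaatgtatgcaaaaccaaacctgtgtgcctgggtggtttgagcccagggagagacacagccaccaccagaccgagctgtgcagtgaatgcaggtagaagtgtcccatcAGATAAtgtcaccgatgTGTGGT
Cd247 40.1 kb, chr1:165656186-165656485: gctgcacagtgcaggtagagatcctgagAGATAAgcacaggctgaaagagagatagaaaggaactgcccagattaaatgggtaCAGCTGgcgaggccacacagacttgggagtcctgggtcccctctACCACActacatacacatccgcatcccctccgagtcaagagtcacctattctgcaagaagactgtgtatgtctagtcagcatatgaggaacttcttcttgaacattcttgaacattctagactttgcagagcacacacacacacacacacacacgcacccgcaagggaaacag

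The Cd3e window held AP-1 letters 2 times, 1 of them overlapping a TCF/LEF match, beside 13.0% of the 71504 central windows of all peaks with AP-1 and 21.88% with TCF/LEF letters. Both Cd247 windows held 1 match each of the RUNX core (30.03% of all windows), GATA (13.59%) and CAGCTG (17.41%), and the 33.5 kb window also held NFAT letters (22.37%). The Cd247 window that was higher in Tconv and the one that was lower thus shared 3 of the motifs searched.

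The third set shows how alike Trbc1 and Trbc2 are, which are not separated here because 1 peak covers both. Of the 13981 windows of 100 bases in this peak, 2.86% occur in it more than once. Exon 1 had 375 bases in both genes with 1 difference (99.73% identity), and exon 3 had 107 bases with 15 differences (85.98%). Capitals mark the differing bases, on the plus strand of GRCm39. The study removed reads of low mapping quality, so that reads matching both copies alike need not be in the counts.
Trbc1 exon 1, chr6:41515361-41515460: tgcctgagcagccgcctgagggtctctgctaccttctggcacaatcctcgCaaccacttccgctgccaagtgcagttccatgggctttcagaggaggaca
Trbc2 exon 1, chr6:41523873-41523972: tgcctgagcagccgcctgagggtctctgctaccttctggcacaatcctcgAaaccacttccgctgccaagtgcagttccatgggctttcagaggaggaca
Trbc1 exon 3, chr6:41516163-41516269: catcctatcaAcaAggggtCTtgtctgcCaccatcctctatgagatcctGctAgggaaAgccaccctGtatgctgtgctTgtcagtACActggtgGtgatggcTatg
Trbc2 exon 3, chr6:41524706-41524812: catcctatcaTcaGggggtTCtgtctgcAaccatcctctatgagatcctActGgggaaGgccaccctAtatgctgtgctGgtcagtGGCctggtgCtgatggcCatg

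Levels are CPM scaled by TMM over all 36 libraries, and CPM per kb where peaks are compared with each other. The most accessible member was the peak over the body of Cd3d (4.3 kb, chr9:44895461-44899360, which holds a further annotated start), with a mean of 27.6 CPM per kb, above 95.9% of all peaks. The Cd3e start peak (0.4 kb, chr9:44918481-44922470) had 19.9 CPM per kb and an intron peak of Cd247 (58.5 kb, chr1:165670341-165679110) 18.1. They were followed by a further Cd247 intron peak (49.4 kb, chr1:165664361-165666930) with 14.5, the Trac peak (chr14:54425981-54467180) with 14.2, the peak over the Cd3d and Cd3g starts (-0.1 kb, chr9:44889141-44894570) with 11.9 and the Cd247 intron peak at 52.0 kb (chr1:165667201-165669280) with 11.45 CPM per kb. Of the other peaks that hold a start, the Cd247 start peak (4.4 kb, chr1:165614861-165626340) had 9.61 and the Trbc peak (chr6:41513991-41528070) 7.12 CPM per kb. The Trac peak is 41200 bp wide and also holds Traj segments, and the Trbc peak of 14080 bp holds Trbd2 and Trbj2 segments. The lowest member was Cd247 81.3 kb, with 2.82 CPM per kb and 3 to 104 reads per library.

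**Figure D1:**
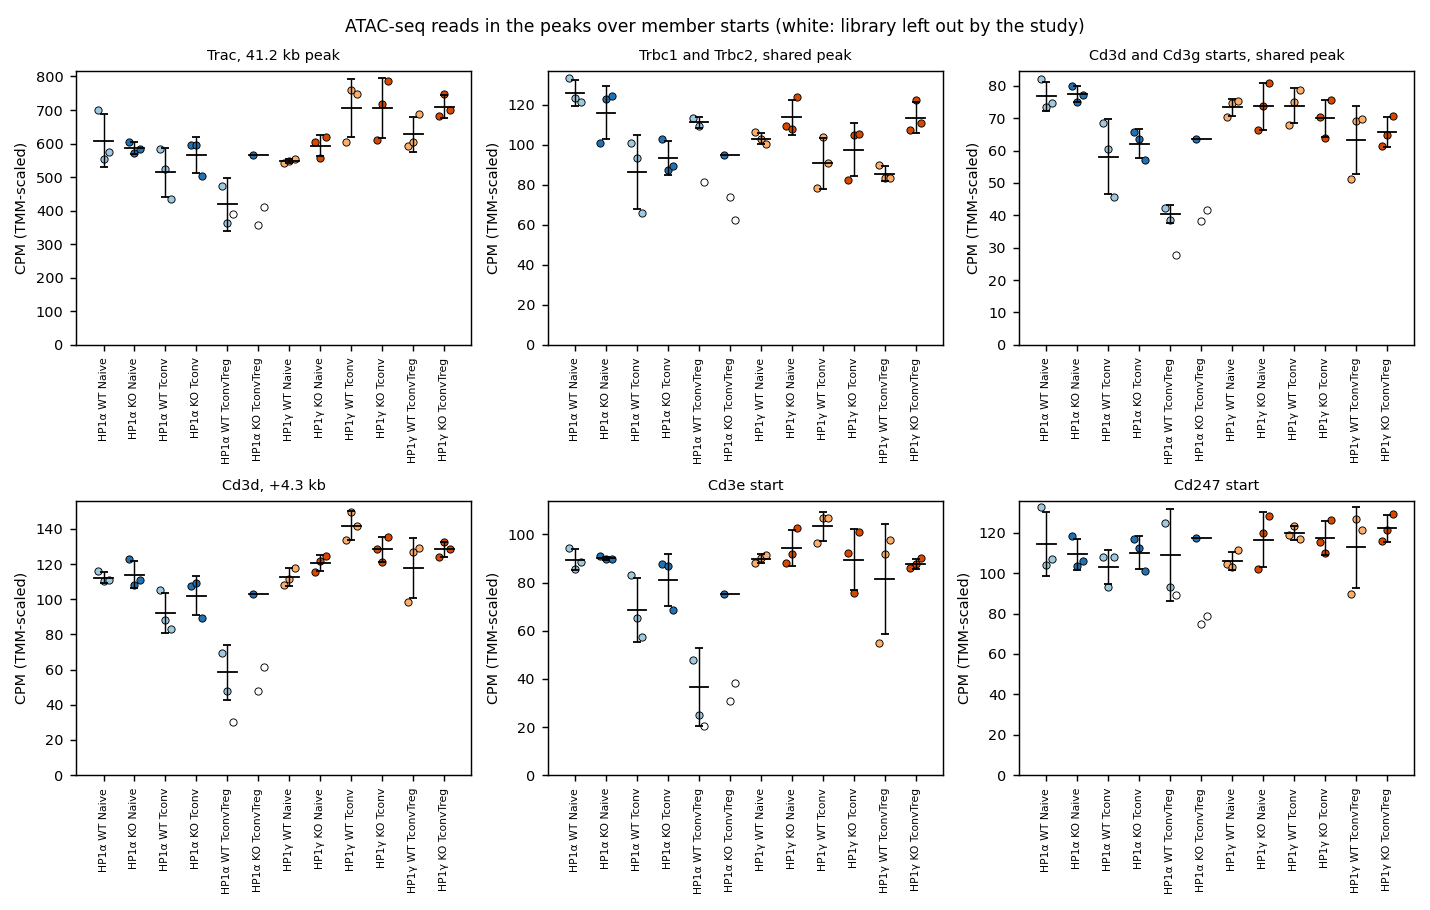
CPM of the 6 peaks that hold a start of a member gene, in each of the 36 libraries, by group; bars are the mean ± SD of the libraries the study kept, and white points are libraries it left out. At the Cd3e start the HP1γ libraries lie between 55.1 and 107 CPM, and the kept HP1α WT TconvTreg libraries lie below them at 48.0 and 25.1 CPM.

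Fold changes and p-values are from edgeR's quasi-likelihood test over all peaks of a line with Benjamini-Hochberg adjustment, and called peaks are those with an adjusted p under 0.05 whose log2 fold change is above 1 or below -1. None of the 6 start peaks was called in any of the 16 comparisons. Between Tconv and naive cells their log2 fold changes lay between -0.43 and 0.43 over both lines and genotypes.

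At the Cd3e start, HP1γ WT libraries held 87.98, 90.3 and 91.6 CPM as naive cells, 96.3, 107 and 107 CPM as Tconv and 91.7, 97.6 and 55.1 CPM as TconvTreg. HP1γ KO libraries held 88.1, 92.04 and 103 CPM as naive cells, 92.3, 75.6 and 101 CPM as Tconv and 90.1, 85.97 and 87.5 CPM as TconvTreg. The WT Tconv libraries lie above the WT naive ones, as at 37.12% of all peaks, though the difference did not pass the test. The KO groups overlap. In the HP1α line, WT libraries held 94.3, 85.7 and 88.5 CPM as naive cells and 83.4, 65.3 and 57.6 CPM as Tconv, and KO libraries 90.9, 89.7 and 89.8 CPM in naive cells and 87.7, 87.02 and 68.5 CPM in Tconv. Tconv lie below naive cells in both genotypes without overlap, as at 30.98% (WT) and 34.23% (KO) of all peaks, and neither difference passed the test. The kept TconvTreg libraries held 48.00 and 25.1 CPM in WT and 75.4 CPM in KO. Group means ran from 36.6 CPM ± 16.2 (SD, n = 2) in HP1α WT TconvTreg to 103 CPM ± 6.12 (SD, n = 3) in HP1γ WT Tconv, and the 4 naive groups, at 89.5 to 94.3 CPM, did not differ beyond their spread.

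The Cd247 start peak had group means from 103 CPM ± 8.57 (SD, n = 3) in HP1α WT Tconv to 122 CPM ± 6.76 (SD, n = 3) in HP1γ KO TconvTreg. At the peak over the Cd3d and Cd3g starts, HP1γ group means lay between 63.3 and 73.9 CPM, and HP1α means were 76.8 (WT) and 77.5 CPM (KO) in naive cells and 58.2 and 62.1 CPM in Tconv, a difference that did not pass the test (adjusted p = 0.0659 and 0.0621). At Cd3d 4.3 kb, HP1γ WT libraries held 108, 112 and 118 CPM as naive cells and 134, 149.9 and 142 CPM as Tconv, a log2 fold change of 0.40 (SE 0.08, adjusted p = 0.000386) that became 0.23 with loess offsets, a scaling that varies with the level, in place of TMM. HP1α WT libraries held 116, 110.4 and 111 CPM in naive cells and 105, 88.2 and 83.2 CPM in Tconv, a change of -0.20 (SE 0.13, adjusted p = 0.172).

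Away from the starts, accessibility changed between naive cells and Tconv. Of the 35 member peaks, 4 were called in HP1α WT (2 higher in Tconv, 2 lower), 5 in HP1α KO (1 higher, 4 lower), 10 in HP1γ WT (4 higher, 6 lower) and 8 in HP1γ KO (5 higher, 3 lower). Among all peaks tested, 42.5%, 42.6%, 46.5% and 43.0% were called in these comparisons, and among the members 11.4%, 14.3%, 28.6% and 22.9%. Of all peaks, 24.9%, 23.5%, 24.5% and 22.4% were called higher and 17.5%, 19%, 22% and 20.6% lower. Median log2 fold changes of the members were -0.35, -0.47, -0.36 and -0.21, beside -0.03, -0.05, 0.08 and 0.06 over all peaks. The sign was negative in all 4 comparisons for 22 peaks, positive in all 4 for 6 and mixed for 7. All Tconv libraries lay above all naive libraries of the group compared at 3, 3, 8 and 6 members and below them at 20, 18, 19 and 14, beside 30.45%, 31.02%, 37.12% and 31.23% of all peaks above and 30.98%, 34.23%, 38.35% and 33.94% below. Markers of other cells moved between the same conditions. Of the 3 start peaks of 2 CD8 T cell markers, that of Cd8b1 held 29.5 to 35.9 CPM in naive libraries and 2.66 to 8.67 CPM in Tconv, while the 2 of Runx3 held 59.0 to 67.4 and 61.2 to 96.2 CPM in naive libraries and 58.8 to 104.7 and 60.9 to 132 CPM in Tconv. Sox13, the 1 of 4 γδ T cell markers with a start peak, held 4.55 to 8.86 and 1.59 to 5.26 CPM, and both it and Cd8b1 were called lower in Tconv in all 4 comparisons. The B cell marker Pax5 held 1.94 to 3.68 CPM in naive libraries and 4.48 to 6.71 CPM in Tconv and was called higher in the KO cells of both lines. The erythroid marker Gata1 held 1.97 to 4.57 and 0.420 to 1.34 CPM and was called lower in all 4. The myeloid marker Itgam was called lower in HP1α WT and KO, 1 Foxp3 peak, a Treg marker, lower in all but HP1γ KO, and the erythroid marker Hbb-bs, at 0 to 0.285 and 0.135 to 1.05 CPM, higher in both WT comparisons. Their part in the results was not tested.

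**Figure D2:**
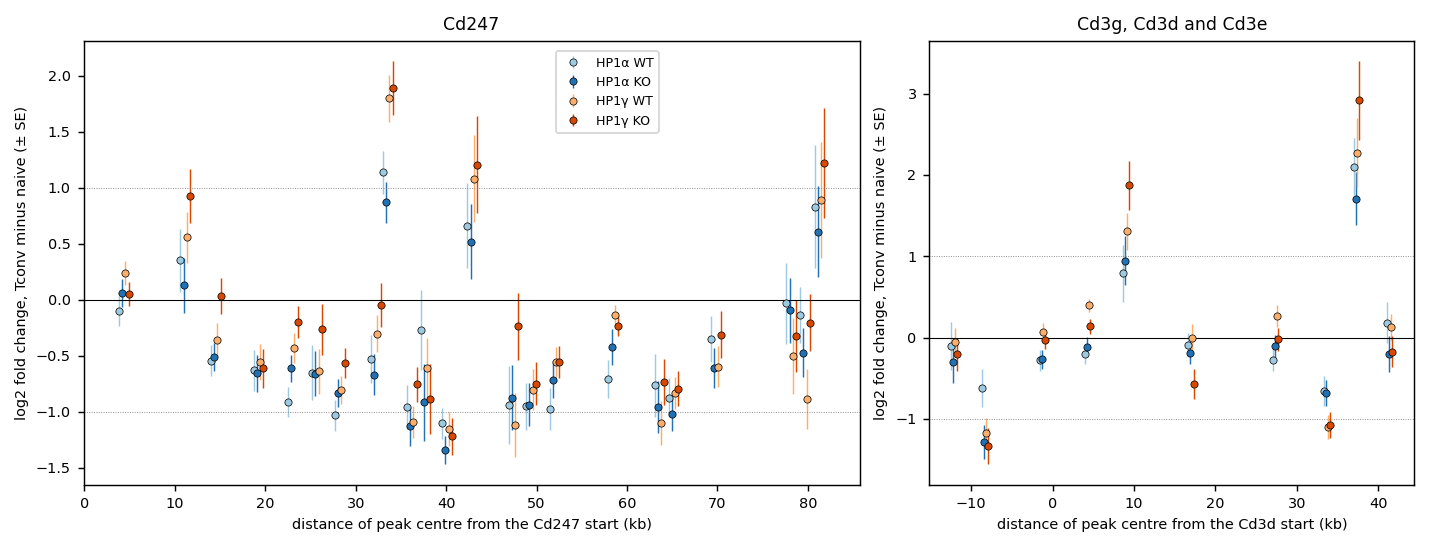
Log2 fold change (± SE) between Tconv and naive cells for the member peaks of Cd247 (left) and of Cd3g, Cd3d and Cd3e (right), against the distance in kb of the peak's centre from the Cd247 or Cd3d start; colours are line and genotype, and dotted lines mark the fold threshold of 1. The Cd247 33.5 kb peak lies above 0 and the 40.1 kb peak below -1 in all 4 comparisons, and the highest value on the right is 2.92 at Cd3e -9.5 kb.

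Cd3e had the largest gain of the members, at -9.5 kb upstream (chr9:44930071-44930710). This peak and Cd247 40.1 kb, the 2 called in all 4 comparisons, were singled out after their values were seen. HP1α WT libraries held 0.718, 0.494 and 0.985 CPM as naive cells and 2.79, 3.08 and 4.55 CPM as Tconv, and HP1α KO libraries 1.26, 0.515 and 0.468 CPM in naive cells and 1.84, 2.81 and 2.09 CPM in Tconv. HP1γ WT libraries held 1.14, 0.746 and 0.916 CPM in naive cells and 3.77, 4.16 and 5.04 CPM in Tconv, and HP1γ KO libraries 0.444, 0.936 and 0.886 CPM in naive cells and 5.41, 3.54 and 7.43 CPM in Tconv. Every Tconv library lay above every naive library of its line and genotype. Log2 fold changes were 2.10 (SE 0.35), 1.71 (SE 0.33), 2.27 (SE 0.42) and 2.92 (SE 0.49), with adjusted p of 5.10e-05, 0.000197, 0.000105 and 4.17e-05. The naive values rest on 14 to 78 reads per library.

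Nearer to Cd3e, the -5.8 kb peak (chr9:44925901-44927600) moved the other way. It held 16.7, 16.6 and 16.8 CPM in HP1γ WT naive cells and 6.98, 7.92 and 7.55 CPM in Tconv, a change of -1.10 (SE 0.15, adjusted p = 2.60e-06). In HP1γ KO it held 16.8, 16.8 and 15.9 CPM in naive cells and 7.37, 6.35 and 8.32 CPM in Tconv, a change of -1.08 (SE 0.17, adjusted p = 1.72e-05). The naive and Tconv libraries of the line do not overlap. In the HP1α line the changes were -0.66 (SE 0.18, adjusted p = 0.00477) in WT and -0.68 (SE 0.16, adjusted p = 0.00113) in KO, which passed the test but not the fold threshold. The HP1γ WT change was -0.99 with loess offsets and the HP1γ KO change -0.99 without KO Tconv replicate 2, both short of the fold threshold, and the HP1α WT change was -0.44 with loess offsets and did not pass without WT Tconv replicate 1 (-0.52).

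Cd3d gained accessibility downstream of the gene, at 9.0 kb (chr9:44901811-44902380). The peak held 1.21, 0.909 and 1.16 CPM in HP1γ WT naive cells and 2.47, 2.65 and 2.66 CPM in Tconv, a change of 1.31 (SE 0.23, adjusted p = 4.46e-05). HP1γ KO libraries held 1.20, 0.334 and 0.586 CPM in naive cells and 2.11, 1.92 and 2.88 CPM in Tconv, a change of 1.87 (SE 0.30, adjusted p = 3.00e-05). Tconv lay above naive cells without overlap in both. The HP1α changes of 0.79 (SE 0.36, adjusted p = 0.0626) in WT and 0.95 (SE 0.30, adjusted p = 0.0115) in KO were not called. Cd3g lost accessibility at an exon peak at 6.9 kb (chr9:44884591-44885040), which held 3.43, 3.30 and 3.98 CPM in HP1γ WT naive cells and 1.78, 1.41 and 1.32 CPM in Tconv, a change of -1.17 (SE 0.18, adjusted p = 1.50e-05). It was also called lower in HP1γ KO, at -1.34 (SE 0.22, adjusted p = 4.74e-05), and in HP1α KO, at -1.28 (SE 0.21, adjusted p = 3.31e-05). The HP1α WT change was -0.62 (SE 0.23, adjusted p = 0.0300), which DESeq2 did not pass (-0.58).

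**Figure D3:**
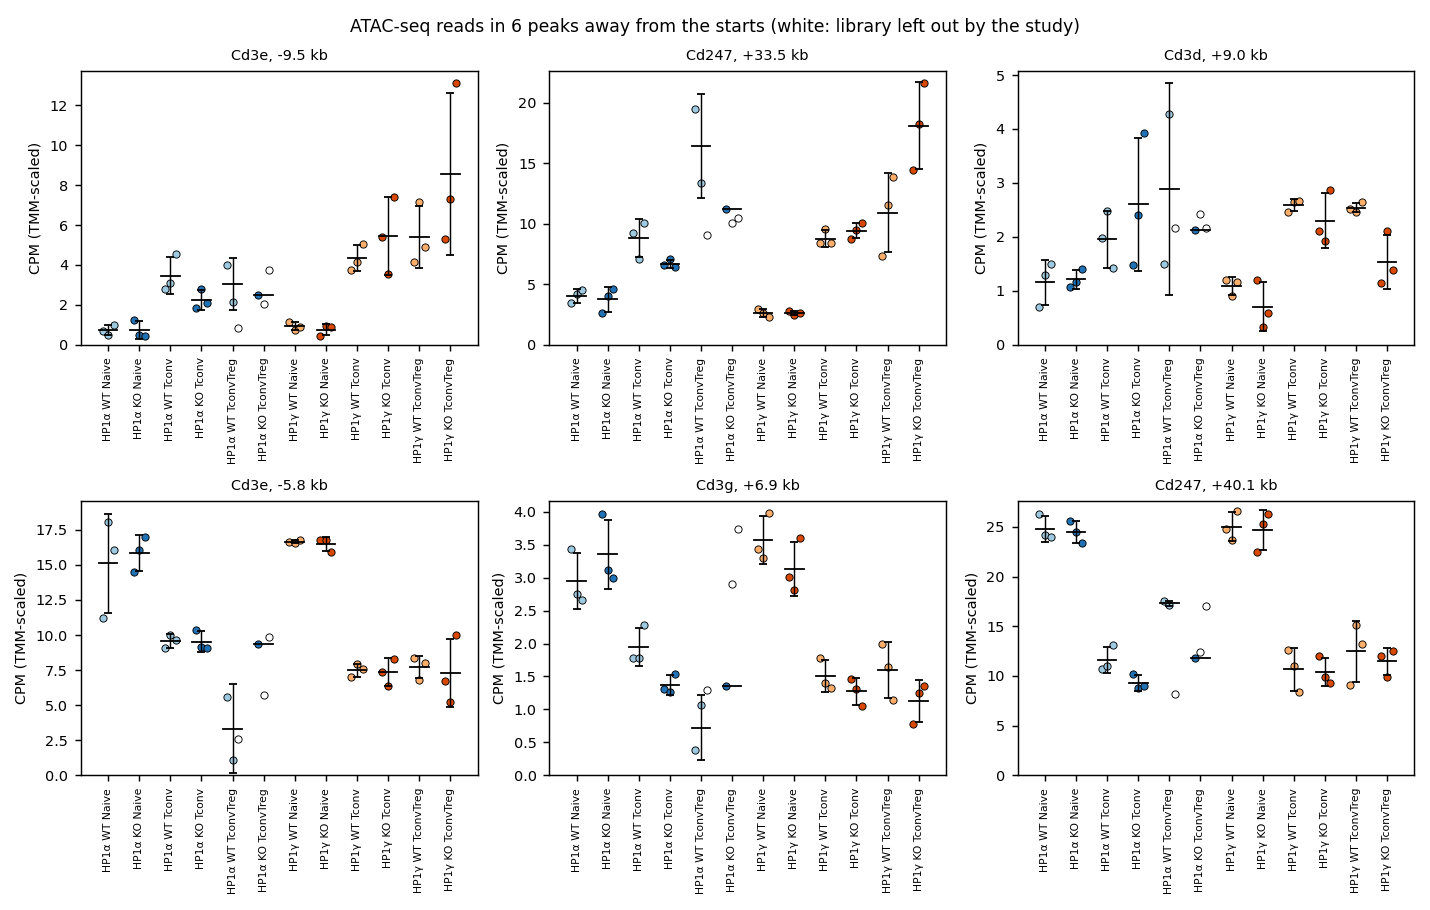
CPM of 6 peaks away from the starts in each of the 36 libraries, by group; bars are the mean ± SD of the kept libraries and white points the libraries left out by the study. In the HP1γ line Cd3e -9.5, Cd247 33.5 and Cd3d 9.0 kb are higher in Tconv than in naive cells and Cd3e -5.8, Cd3g 6.9 and Cd247 40.1 kb lower, and Cd247 40.1 kb lies at 22.4 to 26.6 CPM in all naive libraries.

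Most of the 23 peaks of Cd247 were intronic, and neighbours among them moved in opposite directions. The 33.5 kb peak (chr1:165649061-165650520) held 2.997, 2.67 and 2.32 CPM in HP1γ WT naive cells and 8.38, 9.58 and 8.39 CPM in Tconv, a change of 1.80 (SE 0.21, adjusted p = 4.05e-07). HP1γ KO libraries held 2.82, 2.51 and 2.63 CPM in naive cells and 8.79, 9.46 and 10.1 CPM in Tconv, a change of 1.89 (SE 0.24, adjusted p = 2.04e-06), and HP1α WT libraries 3.44, 4.18 and 4.53 CPM in naive cells and 9.26, 7.12 and 10.1 CPM in Tconv, a change of 1.13 (SE 0.20, adjusted p = 8.49e-05). In HP1α KO the change was 0.87 (SE 0.18, adjusted p = 0.000528), under the fold threshold. The 40.1 kb peak (chr1:165655351-165657320) held 26.4, 24.2 and 23.9 CPM in HP1α WT naive cells and 10.7, 11.02 and 13.1 CPM in Tconv, and 24.8, 23.7 and 26.6 CPM in naive cells and 12.7, 10.97 and 8.35 CPM in Tconv in HP1γ WT. Its changes were -1.11 (SE 0.14) in HP1α WT, -1.35 (SE 0.13) in HP1α KO, -1.16 (SE 0.15) in HP1γ WT and -1.22 (SE 0.17) in HP1γ KO, with adjusted p of 2.62e-06, 5.09e-08, 1.40e-06 and 3.94e-06. The HP1α WT call at 40.1 kb was lost with loess offsets (-0.86) and without WT Tconv replicate 1 (-0.97). Naive and Tconv libraries overlapped at neither peak. The most accessible intron peak, at 58.5 kb, held 186, 184 and 197 CPM in HP1γ WT naive cells and 170.5, 167 and 155 CPM in Tconv, a change of -0.14 (SE 0.09, adjusted p = 0.177), and changed by -0.71 (SE 0.17, adjusted p = 0.00164) in HP1α WT, or by -0.33 with loess offsets. Other Cd247 peaks called in at least 1 of these comparisons lay at 28.2, 36.2, 47.4, 63.6 and 65.1 kb, lower in Tconv, and at 42.9 and 81.3 kb, higher in Tconv. Most of these calls were near the threshold. With loess offsets those at 28.2 kb in HP1α WT (-0.76), 36.2 kb in HP1α KO (-0.91) and HP1γ WT (-0.97), 63.6 kb in HP1γ WT (-0.95), 65.1 kb in HP1α KO (-0.80) and 81.3 kb in HP1γ KO (0.81) were lost. DESeq2 did not make the HP1α KO calls at 36.2 kb (-0.97) and 65.1 kb (-0.95). The 65.1 kb call was also lost with DESeq2 size factors, the older dispersion, the replicate block and all HP1α libraries, the 28.2 kb call with only the groups compared and all HP1α libraries, and the HP1γ WT call at 42.9 kb (0.98) and the 81.3 kb call (1.15) with the block. Leaving out single libraries ended each of these calls except those at 47.4 and 63.6 kb.

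Trac encodes the α constant region. Its peak held 542, 547 and 555 CPM in HP1γ WT naive cells and 605, 759.7 and 749 CPM in Tconv, and 604, 558 and 619.9 CPM in naive cells and 612, 719 and 787 CPM in Tconv in HP1γ KO. Tconv were above naive cells without overlap in WT, at 0.43 (SE 0.08, adjusted p = 0.000182), and overlapped them in KO, at 0.29 (SE 0.08, adjusted p = 0.00556). Both changes passed the test but not the fold threshold, and with loess offsets the WT value was 0.14 and no longer passed. The KO change did not pass without KO Tconv replicate 3 (0.20). In HP1α WT, 699.8, 554 and 574 CPM in naive cells stood beside 583, 524 and 436 CPM in Tconv, a change of -0.18 (SE 0.13, adjusted p = 0.248). The Trbc peak held 133, 123 and 121 CPM in HP1α WT naive cells and 101, 93.1 and 65.7 CPM in Tconv, a change of -0.43 (SE 0.14, adjusted p = 0.0112) that became -0.09 and no longer passed with loess offsets. In HP1α KO, HP1γ WT and HP1γ KO its changes of -0.27, -0.12 and -0.18 did not pass the test.

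The variable segments of the same loci were taken as context. As background, joining of V, D and J segments in the thymus deletes the DNA between them, and Vβ6, for which Tconv were sorted, is encoded by Trbv19. The Trbv19 peak held 16.1, 16.3 and 16.6 CPM in HP1γ WT naive cells and 39.8, 43.5 and 41.9 CPM in Tconv, and it was called higher in Tconv in all 4 comparisons, with log2 fold changes of 1.21, 1.18, 1.42 and 1.43. In HP1γ WT, where 24.5% of all peaks were called higher in Tconv and 22% lower, 12 of 25 segment peaks 5′ of Trbv19 were called higher in Tconv and 1 lower, whereas of 11 peaks between Trbv19 and Trbd1 0 were called higher and 7 lower. Their median changes were 0.75 and -1.41. Of 3 peaks 3′ of Trbc2, 1 was called lower (range -2.43 to 0.71). The 1 further peak between Trbd1 and Trbc2 was not called (0.07). Of 88 Trav peaks, 1 was called higher and 69 lower (median -1.54), and all 14 Trd peaks were called lower (median -4.74). Of the 6 Traj peaks outside the Trac peak none was called in HP1γ WT (median -0.45) or KO (-0.69), but 2 were called lower in HP1α WT (-0.87) and 1 in HP1α KO (-0.60). The Trac and Trbc peaks, at 0.43 and -0.12, lay within the fold threshold on the same chromosomes.

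**Figure D4:**
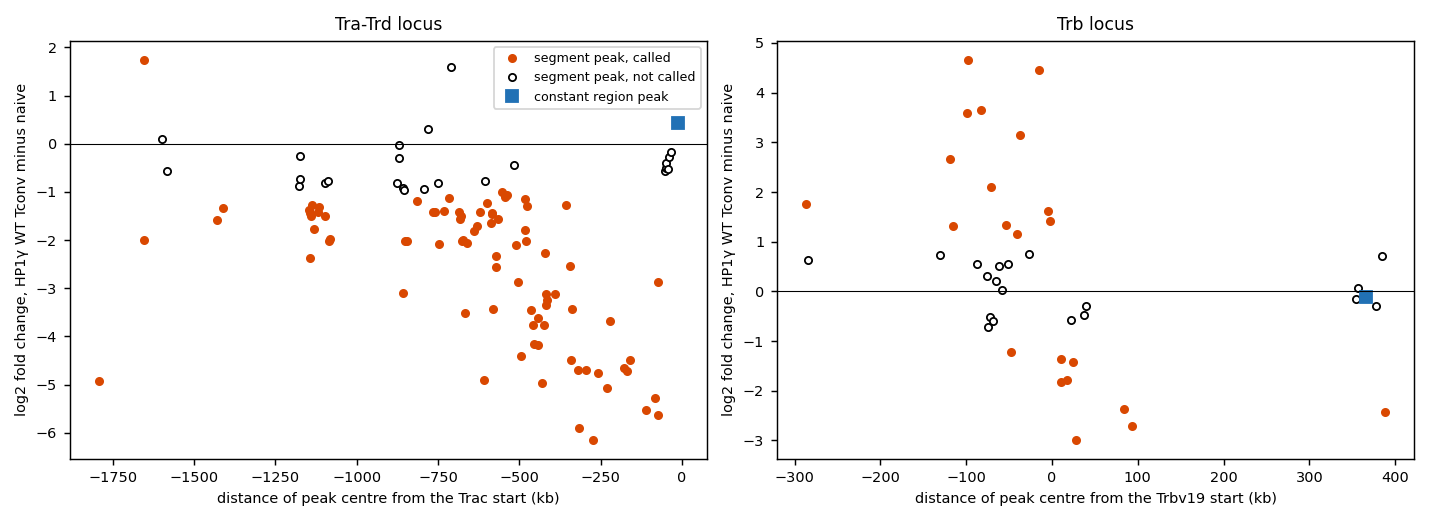
Log2 fold change between Tconv and naive cells in HP1γ WT for peaks at gene segments, against the distance in kb from the Trac start (Tra-Trd locus, left) or the Trbv19 start (Trb locus, right); filled points were called, open points were not, and squares are the constant region peaks. On the right, 12 peaks before Trbv19 were called higher and 1 lower. Between Trbv19 and Trbd1 7 were called lower, and 3′ of Trbc2 1 was. The squares lie at 0.43 (left) and -0.12 (right).

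Cells lacking HP1α were compared with WT in each condition. No member peak was called in naive cells, Tconv or TconvTreg, beside 0.00559%, 0.021% and 1.63% of all peaks. At an unadjusted p under 0.05 there were 0, 0 and 9 member peaks, beside 1.17%, 4.82% and 16.3% of all peaks, and DESeq2 called 0, 0 and 2, beside 0.00979%, 0.0168% and 3.68%. In naive cells the start peaks differed by -0.12 to 0.02 on the log2 scale, and the 95% interval at the Cd3e start was -0.25 to 0.27. In Tconv they differed by 0.03 to 0.18, with an interval of -0.10 to 0.47 at Cd3e. The TconvTreg comparison rests on 1 KO library, so its standard errors and p-values, like those of the other HP1α tests with this group, assume that the library varies as the other groups do. There the start peaks differed by -0.24 to 0.80 and none passed the test. The Cd3e start held 48.00 and 25.1 CPM in WT and 75.4 CPM in KO, a difference of 0.80 (SE 0.25, adjusted p = 0.117), the Cd3d peak at 4.3 kb differed by 0.67 (SE 0.22, adjusted p = 0.120) and the peak over the Cd3d and Cd3g starts by 0.61 (SE 0.23, adjusted p = 0.185). With all 18 HP1α libraries the Cd3e start held 48.00, 25.1 and 20.3 CPM in WT and 75.4, 30.8 and 38.2 CPM in KO, which overlap, a difference of 0.59 (SE 0.34, adjusted p = 0.550). In the other direction, Cd247 79.7 kb held 11.6 and 8.55 CPM in WT and 3.65 CPM in KO, a difference of -1.61 (SE 0.41, adjusted p = 0.0544). With all 18 HP1α libraries, whose values at this peak were 11.6, 8.55 and 6.69 CPM in WT and 3.65, 5.22 and 9.77 CPM in KO and overlap, 0.741% of all peaks and no member were called. Markers differed too in the kept TconvTreg libraries, given as WT mean (n = 2) and KO (n = 1). Summed CPM were 1060 and 1395 for CD4 T cell markers, 92.9 and 155.9 for CD8 and 20.05 and 28.3 for myeloid markers. They were 21.1 and 10.7 for B cell and 290 and 269 for Treg markers. Eomes held 50.3 and 32.7 CPM and Sox13 6.25 and 2.75. Il2ra was higher in KO (9.46 and 6.42 against 22.9 CPM) and Ctla4 lower (163.6 and 111 against 98.8 CPM). Their part was not tested.

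Cells lacking HP1γ likewise had no member called in naive cells or Tconv, beside 0.14% and 3.35% of all peaks, with 0 and 5 members at an unadjusted p under 0.05 (8.98% and 19.6% of all peaks) and 0 and 0 with DESeq2 (3.27% and 3.44%). The Cd3e start differed by -0.19 in Tconv, with a 95% interval of -0.46 to 0.09. In TconvTreg 1 of 35 was called, beside 11.9% of all peaks, and 2 with the replicate number as a block. The called peak, Cd247 81.3 kb (chr1:165697421-165697640, over an exon), held 0.344, 0.349 and 0.714 CPM in WT and 1.77, 1.05 and 0.719 CPM in KO, a difference of 1.58 (SE 0.38, adjusted p = 0.00736). The groups do not overlap, but the nearest libraries lie close together, and the values rest on 14 to 17 reads per WT library and 27 to 104 per KO library. The call was lost without KO TconvTreg replicate 1 (1.16) and without WT TconvTreg replicate 2 (1.44). With the block the value was 1.62, and Cd247 79.7 kb (chr1:165695361-165696490) was called too, at 1.02. This peak held 4.12, 2.99 and 3.57 CPM in WT and 9.53, 5.74 and 5.59 CPM in KO, a difference of 0.99 (SE 0.24, adjusted p = 0.00728) without the block, which did not pass with only the groups compared (0.99), without KO TconvTreg replicate 1 (0.68) or without WT TconvTreg replicate 2 (0.84).

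At an adjusted p under 0.05 without the fold threshold, 5 members were higher and 2 lower in HP1γ KO TconvTreg, beside 11.6% and 8.92% of all peaks. The members below the fold threshold are given for completeness. Cd247 14.5 kb (chr1:165628161-165633380) held 49.5, 41.1 and 31.2 CPM in WT and 88.3, 57.3 and 76.4 CPM in KO, a difference of 0.83 (SE 0.16, adjusted p = 0.00182). Cd247 33.5 kb held 11.5, 13.9 and 7.38 CPM in WT and 21.6, 14.4 and 18.3 CPM in KO, a difference of 0.67 (SE 0.17, adjusted p = 0.00950). The 33.5 kb difference did not pass without KO TconvTreg replicate 1 (0.51). Every KO library lay above every WT library at both, as at 8 of the 35 members and 15.32% of all peaks, with the reverse at 4 members and 16.45% of all peaks. The Cd247 start held 127, 121 and 89.7 CPM in WT and 129, 116 and 121 CPM in KO, a difference of 0.11 (SE 0.11, adjusted p = 0.482) with a 95% interval of -0.10 to 0.32. The Trbc peak held 83.4, 83.3 and 89.9 CPM in WT and 111, 107 and 122 CPM in KO, a difference of 0.42 (SE 0.10, adjusted p = 0.00756) that became 0.29 and no longer passed with loess offsets. Cd3d 9.0 kb was lower in KO, with 2.47, 2.64 and 2.52 CPM in WT and 1.38, 1.14 and 2.10 CPM in KO and a difference of -0.78 (SE 0.25, adjusted p = 0.0382) that did not pass with DESeq2 (-0.67), with loess offsets (-0.59) or when any 1 of 5 of the 6 libraries compared was left out. Cd3e -13.5 kb (chr9:44934071-44934844), the other member lower in KO and named after its values were seen, held 3.42, 3.81 and 3.86 CPM in WT and 2.43, 1.77 and 2.10 CPM in KO without overlap, a difference of -0.78 (SE 0.20, adjusted p = 0.0118). It did not pass with only the groups compared (-0.79) or without WT TconvTreg replicate 2 (-0.76). Of the marker peaks of other cell types 1 was called between the same libraries, that of the myeloid marker Itgam, which held 2.05 to 3.09 CPM in WT and 0.902 to 1.28 CPM in KO. No peak of the Treg, NK and B cell lists was called. The 6 start peaks of 4 Treg markers summed to 236 to 283 CPM in WT and 354 to 375 CPM in KO, while the main Foxp3 peak held 93.7 to 106 and 94.4 to 103 CPM. Eomes, the 1 of 3 NK markers with a start peak, held 20.3 to 32.2 and 29.5 to 71.1 CPM, and Pax5 and Ebf1, the 2 of 6 B cell markers with one, summed to 9.96 to 13.4 and 16.2 to 20.5 CPM. Their part in the result was not tested.

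**Figure D5:**
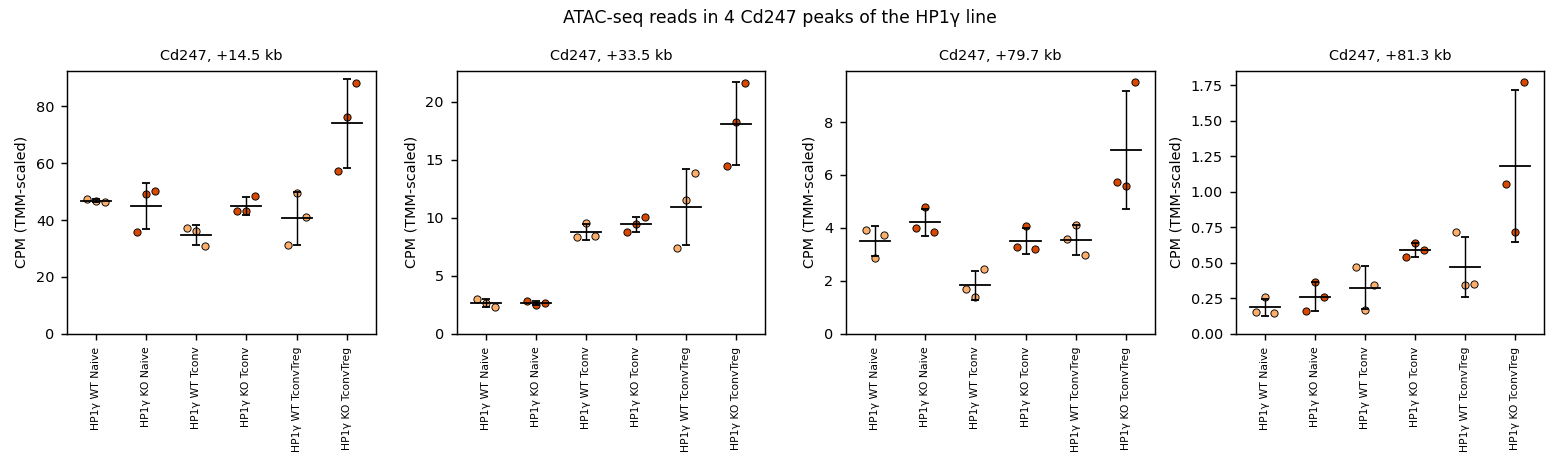
CPM of 4 peaks of Cd247 in the 18 libraries of the HP1γ line, by group; bars are the mean ± SD of 3 libraries. At 14.5 and 33.5 kb all HP1γ KO TconvTreg libraries lie above every other library of the line, with means of 74.00 and 18.1 CPM.

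The effect of Treg was examined within each genotype. In HP1α WT, 3 member peaks were called higher in TconvTreg than in Tconv and 0 lower, beside 6.77% of all peaks (4.92% higher, 1.84% lower), and all 3 were in Cd247. The 14.5 kb peak held 33.05, 28.9 and 38.96 CPM in Tconv and 77.2 and 62.01 CPM in TconvTreg, a change of 1.18 (SE 0.18, adjusted p = 0.000933). The 33.5 kb peak held 9.26, 7.12 and 10.1 CPM in Tconv and 19.5 and 13.4 CPM in TconvTreg, a change of 1.09 (SE 0.27, adjusted p = 0.0206), and the 79.7 kb peak 2.75, 4.47 and 5.83 CPM in Tconv and 11.6 and 8.55 CPM in TconvTreg, a change of 1.70 (SE 0.37, adjusted p = 0.00982). The groups, 3 and 2 libraries, do not overlap at any of them. All TconvTreg libraries lay above all Tconv libraries at 14 members and 16.79% of all peaks, and below them at 8 members and 18.54% of all peaks. Without WT TconvTreg replicate 1, which leaves the library of 1.49 M reads alone, none was called (0.89, 0.57 and 1.27). With all 18 HP1α libraries, 7.79% of all peaks and the 14.5 and 79.7 kb peaks were called. The 33.5 kb call was also lost with DESeq2 (0.97), the older dispersion, only the groups compared, and without WT Tconv replicate 1 or 2 (1.19 and 0.99), and the 79.7 kb call with depth as a covariate (1.23) and without WT Tconv replicate 1 (1.18). Over all 3 libraries of each group, B cell markers summed to 8.82 to 9.89 CPM in Tconv and 20.9 to 21.4 CPM in TconvTreg, Eomes held 18.8 to 36.5 and 38.5 to 62.0 CPM, myeloid markers (3 of 5 with a start peak) summed to 29.2 to 31.6 and 17.6 to 22.9 CPM, and CD4 T cell markers to 1140 to 1515 and 914 to 1200 CPM. CD8 T cell markers summed to 131 to 179 CPM in Tconv and 72.5 to 96.5 CPM in TconvTreg, Treg markers to 194 to 269.7 and 195 to 352.5 CPM, and Sox13 held 2.23 to 5.26 and 5.56 to 6.95 CPM. Among the Treg markers, Il2ra held 21.4 to 31.1 CPM in Tconv and 6.42 to 9.46 CPM in TconvTreg, and Ctla4 58.3 to 91.8 and 93.8 to 163.6 CPM. In the fit on the kept libraries, Pax5, Eomes and 1 Ikzf2 peak were called higher in TconvTreg, and Il2ra, 1 Runx3 peak and the CD4 T cell marker Zbtb7b lower. Their part in the result was not tested.

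In HP1α KO, whose TconvTreg group is 1 library, no member was called between TconvTreg and Tconv, beside 0.548% of all peaks. There were 4 members at an unadjusted p under 0.05, beside 8.54% of all peaks, and 0 with DESeq2, beside 0.141%. With all 18 libraries 1.45% of all peaks and 1 member, Cd247 42.9 kb, were called. HP1γ WT had no member called, beside 0.137% of all peaks. There were 12 members at an unadjusted p under 0.05, beside 20.3% of all peaks, and 2 with DESeq2, beside 3.26%. HP1γ KO had 2, both higher in TconvTreg, beside 8.15% of all peaks (6.1% higher, 2.06% lower). Cd247 79.7 kb held 3.28, 4.09 and 3.20 CPM in Tconv and 9.53, 5.74 and 5.59 CPM in TconvTreg, a change of 1.04 (SE 0.22, adjusted p = 0.00485), and Cd247 81.3 kb 0.543, 0.641 and 0.588 CPM in Tconv and 1.77, 1.05 and 0.719 CPM in TconvTreg, a change of 1.07 (SE 0.33, adjusted p = 0.0324). Neither was called without KO TconvTreg replicate 1 (0.72 and 0.65) or KO Tconv replicate 3 (0.97 and 1.08), and the 81.3 kb peak was not called without KO Tconv replicate 1 (1.03) or with loess offsets (0.82), which called Cd247 33.5 kb (1.01) in its place. DESeq2 did not call the 81.3 kb peak. Both calls were also lost with the older dispersion, only the groups compared and the replicate block. Between the same libraries B cell markers summed to 11.2 to 15.4 CPM in KO Tconv and 16.2 to 20.5 CPM in KO TconvTreg, Treg markers to 262 to 330.3 and 354 to 375 CPM, and Eomes held 15.9 to 40.7 and 29.5 to 71.1 CPM. None of these was called, and the 1 marker peak that was, Itgam, held 1.40 to 3.24 CPM in KO Tconv and 0.902 to 1.28 CPM in KO TconvTreg. Their part in the result was not tested.

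Whether the effect of Treg differed between KO and WT was tested as an interaction. No member was called in either line, beside 0.0461% of all peaks in HP1α and 0.0014% in HP1γ, with 8 and 3 members at an unadjusted p under 0.05 (10.3% and 12.8% of all peaks) and 0 and 0 with DESeq2 (0.295% and 1.12%). With all 18 HP1α libraries it called 0% of all peaks. At Cd247 14.5 kb the interaction was 0.45 (SE 0.23, adjusted p = 0.410) in HP1γ and -0.63 (SE 0.26, adjusted p = 0.399) in HP1α, and at 79.7 kb 0.06 (SE 0.39, adjusted p = 0.958) and -1.38 (SE 0.48, adjusted p = 0.331). A call in one genotype and not in the other is therefore not shown to differ between genotypes.

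Genes that work with the receptor had peaks called in both directions on transfer. Among all peaks, 24.5% were called higher and 22% lower in HP1γ WT and 24.9% and 17.5% in HP1α WT, and the groups' counts are a description beside these shares. In HP1γ WT, 44 of 176 peaks of 17 proximal signalling genes, such as the kinases Lck and Zap70 and the adaptor Lat, were called higher in Tconv than in naive cells and 28 lower (median 0.21). Of 32 peaks of 6 coreceptors and accessory molecules, such as Cd4, Cd2 and Cd28, 7 were called higher and 5 lower (median 0.18). Of 98 peaks of 11 genes that restrain the receptor, such as the ubiquitin ligase Cblb and the phosphatase Ptpn22, 18 were called higher and 22 lower (median -0.12). Of 22 peaks of 7 neighbouring genes, 2 were called higher and 2 lower. In HP1α WT the counts were 45 and 20, 7 and 2, 12 and 23, and 3 and 2.

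The start peaks most like those of the members over the 12 group means of log2 CPM were found among 12739 genes by Pearson's r, as a description of groups of unequal depth. For Cd3d 4.3 kb these were Dbnl (0.995), Dgat1 (0.994) and Ccnt1 (0.991), and for the Cd3e start Etv3 (0.994), Rfc4 (0.993) and Slc38a10 (0.992). The peak over the Cd3d and Cd3g starts was most like Icam2 (0.993) and a peak shared by Jmjd6 and Mettl23 (0.992). Cd247 58.5 kb was most like Rtn4 (0.992), G3bp2 (0.991) and Ckap2l (0.989), and Trac most like Pacsin2 (0.989), Tlcd2 (0.987) and Kdm2b (0.986). For the Trbc peak the highest values were 0.964, at a peak shared by Ndufa4 and Phf14, and 0.963 at Acp1.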

How the data were processed

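ATAC-seq of 36 libraries was read from the count table deposited by the authors, which gives raw counts of reads per consensus peak with no normalization. Per the labels and the study's methods, reads were trimmed (Trim Galore 0.6.7), aligned to GRCm39 with BWA, filtered on mapping quality and cleared of duplicates. Peaks called per sample were merged, and reads were counted with featureCounts 2.0.3, allowing a read in several overlapping peaks. Of 71512 intervals 3 had no width and were left out.

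Counts were fitted per line with edgeR 4.0.16 (quasi-likelihood, filterByExpr, TMM) in R 4.3.3, over the 15 HP1α libraries the study kept and the 18 HP1γ libraries, with adjusted p-values over all peaks tested (71509 and 71508). The lines were not tested against each other. Intervals are 95% intervals of the fitted log2 fold change. A prior count of 2 was used for log2 CPM. The steps were tested on simulated data. Peaks described in full were, for each gene, that of highest CPM per kb, that of smallest p between Tconv and naive cells in HP1γ WT, and any called in a comparison of genotype or Treg. The members and all lists were chosen with earlier results of these data known.

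Alternatives were DESeq2 1.42.0, its size factors, loess offsets (span 0.3), the older edgeR dispersion, only the groups compared, depth as a covariate, all HP1α libraries, the replicate block and leaving out each library. Replicate numbers are shared between groups and the labels do not say what they mark. Same-numbered libraries deviated together in every pair (r over 0.1) in 3 of 14 comparisons: HP1α KO and WT naive cells (0.247 to 0.500), HP1γ KO and WT TconvTreg (0.147 to 0.323), and HP1γ WT TconvTreg and Tconv (0.202 to 0.286).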

Additional observations from a re-analysis of the deposited data

Results flagged for a closer look

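Both lines have WT cells, and 2 start peaks moved in opposite directions between naive cells and Tconv in them, with every Tconv library beyond every naive library of its line. Of all peaks, every Tconv library lay above every naive library at 30.45% in HP1α WT and 37.12% in HP1γ WT, and below at 30.98% and 38.35%. At Cd3d 4.3 kb the log2 fold change was -0.204 in HP1α WT, where naive libraries held 110.4 to 116.0 CPM and Tconv 83.19 to 105.3 CPM, and 0.396 in HP1γ WT, where they held 108.2 to 118.0 and 133.5 to 149.9 CPM. At the Cd3e start (0.4 kb) it was -0.274 in HP1α WT, with 85.71 to 94.27 and 57.59 to 83.36 CPM, and 0.264 in HP1γ WT, with 87.98 to 91.62 and 96.31 to 107.0 CPM. Of these 4 changes the HP1γ change at Cd3d passed its own test. With loess offsets that change was 0.227. The difference between the lines was not tested.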

How the results depend on the processing

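The alternative runs followed 57 pairs of a peak and a comparison, all of which had passed the test in the main fit. None of these reversed. Other settings left 416 values on the same side of the test and made 62 weaker. Leaving out a library left 273 and made 66 weaker. Changes that had not passed were not followed in this way, and some of them changed sign. With all HP1α libraries, the Trbc change between TconvTreg and Tconv in HP1α KO went from 0.04 to -0.21. The HP1α interaction at Trac went from 0.28 to -0.01. Scaled by library size alone, 36 group levels moved by under 1 SD and 36 did not. The latter include every level of HP1α KO TconvTreg, which has 1 kept library and so no SD. Of the counts of called members, 131 stayed within 1.5 times and 21 did not. HP1α KO minus WT TconvTreg went from 0 to 2 with DESeq2 and to 1 with loess offsets. HP1α WT TconvTreg minus Tconv went from 3 to 7 with DESeq2 and 7 with the older dispersion, a setting chosen after seeing the data, and Cd247 33.5 kb was not among them in either. HP1α KO TconvTreg minus Tconv went from 0 to 1 with all HP1α libraries and with depth as a covariate, which also gave 8 for Tconv minus naive in HP1α WT (from 4) and 8 in HP1α KO (from 5). HP1γ KO minus WT TconvTreg went from 1 to 2 with DESeq2, with its size factors and with loess offsets, and to 0 with only the groups compared. HP1γ WT TconvTreg minus Tconv went from 0 to 2 with DESeq2, and HP1γ KO from 2 to 1 with DESeq2, 0 with the older dispersion and 0 with only the groups compared. The causes were not tested.

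With the replicate number as a block, where the pairing held, HP1γ KO minus WT TconvTreg called 2 in place of 1. Elsewhere libraries share only a number, and the block gave 1 for HP1α KO minus WT TconvTreg, 1 for HP1α KO TconvTreg minus Tconv, 8 for HP1α WT Tconv minus naive and 0 for HP1γ KO TconvTreg minus Tconv.

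Leaving out each library in turn gave 3 to 8 calls for Tconv minus naive in HP1α WT and 3 to 8 in HP1α KO, 9 to 10 in HP1γ WT and 6 to 8 in HP1γ KO. For TconvTreg minus Tconv it gave 0 to 3 in HP1α WT, 0 to 1 in HP1α KO and 0 to 4 in HP1γ KO. For KO minus WT in HP1γ it gave 0 to 3 in TconvTreg and 0 to 1 in Tconv, and other comparisons stayed at 0. The lowest HP1α KO count came without KO Tconv replicate 2, and counts of 8 came without WT naive replicate 2 and without KO Tconv replicate 3. The shallowest kept library, of 1.49 M reads, is in the HP1α WT TconvTreg group, beside 1 of 12.7 M reads. The KO group of that condition is limited to 1 library.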
